A study of Homo sapiens with 9 samples.

Results

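The 38 nuclear genes described here encode subunits of respiratory complexes II, III and IV, of ATP synthase, and cytochrome c. They were taken by symbol from a fixed list, which was chosen with earlier results of these data known. Counts of the 38 set beside shares of all genes are therefore descriptions and no test of the list. All 38 were found among the 28395 genes of each library, and all 38 had enough counts to be among the 16017 genes tested. By complex they comprise 3 genes of complex II, 9 of complex III, 10 of complex IV, 15 of ATP synthase and CYCS, the gene of cytochrome c. They were measured by RNA-seq of Caco-2, a human colon carcinoma line that takes on features of small intestinal enterocytes when it is kept confluent. The cells, all labelled wild type and differentiated in the same serum-containing medium, received medium alone, 10 µM carmine or 20 µM carminic acid for 24 h, with 3 libraries (A, B and C) in each group. Carminic acid is the red pigment of cochineal, a glucosylated anthraquinone, and carmine is the aluminium-containing food colour prepared from it. The doses of the 2 colours differ, so in every comparison between them compound and dose cannot be told apart. The labels do not say whether the 3 libraries of a group came from separate cultures on separate days, so a p-value here measures the spread between these libraries, which may be technical.

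The respiratory chain passes electrons from reduced cofactors to oxygen and pumps protons across the inner mitochondrial membrane, and ATP synthase lets the protons flow back to make ATP. Complex II oxidises succinate and feeds electrons into the membrane pool of ubiquinone, complex III passes them to cytochrome c, and complex IV reduces oxygen. Complexes III, IV and ATP synthase combine nuclear subunits, which are made in the cytosol and imported, with a few subunits encoded by the mitochondrial genome, whereas complex II and cytochrome c are wholly nuclear. Enterocytes use this ATP largely to power ion pumping and nutrient uptake.

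Libraries held 54871018 to 57581301 counts, of which the 38 genes took 0.654% to 0.780%. Carmine library C stood apart from the other 8 libraries on the first principal component of all tested genes (34.5, against -19.4 to 14.5). Carmine medians of complexes and pathway lists against control, and fold changes of single genes against control that it moved by more than 1.5 times, are therefore given with and without it. Of 8 epithelial and enterocyte markers, 7 were expressed and summed to between 4434 and 4795 CPM in every library (counts scaled by library total, with edgeR's TMM factors), while KRT20 was at 0 in all. The summed goblet cell markers stayed at or below 0.179 CPM in every library. COL1A1 made up most of the fibroblast list (93.6 to 146.0 CPM, with COL1A2 at no more than 0.0357 CPM) and CD68 most of the immune list (299.7 to 389.4 CPM, with PTPRC at no more than 0.0547 CPM). The part of these markers in the results was not tested.

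The isoforms expressed were those of non-muscle tissue. COX6A2, the heart and muscle partner of COX6A1, had 2 counts over all 9 libraries together, COX7A1, the muscle partner of COX7A2, had 22, and COX4I2, the oxygen-responsive partner of COX4I1, had 4. In bulk RNA, fewer cells that express a gene and less RNA per cell cannot be told apart.

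The promoters, which played no part in choosing the genes, held each of 2 motifs in a larger share than the promoters of all genes, though 12 of 30 had neither. RefSeq promoter windows on GRCh38.p14, from 250 bases before to 50 after an annotated start, were at hand for 30 of the 38 genes. Windows were searched on both strands for the core letters of the site of NRF1 (GCGCATGC) and for the letters CCGGAAG, a site of ETS factors such as GABPA. Both factors are known activators of respiratory genes. The NRF1 core can overlap its own match on the other strand, as it does in SDHD and ATP5F1C, and no printed match of one motif overlaps one of the other. The NRF1 core stood in 9 of the 30 genes, against 3.68% of all 27305 genes with a window and 5.93% of the 12370 tested ones. The ETS letters stood in 15 of the 30, against 12.2% and 20.1%, and both stood in 6 of the 30, against 0.729% and 1.33%. The stretches below, from RefSeq and written 5′ to 3′ along the gene's strand with matches in capitals, are shown because they hold matches in genes whose values follow. The first holds 125 bases ahead of the start of COX5B, with both motifs. The others are windows of 30 bases with the NRF1 core in SDHB, SDHD, CYCS and ATP5F1C and the ETS letters in UQCRQ, UQCR11, COX8A and COX6B1.
COX5B, chr2:97645912-97646036, plus strand: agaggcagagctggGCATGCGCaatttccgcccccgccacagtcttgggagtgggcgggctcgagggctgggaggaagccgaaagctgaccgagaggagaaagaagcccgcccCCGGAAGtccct
SDHB, chr1:17054214-17054243, minus strand: aagccaaatggGCATGCGCcgctactgcgc
SDHD, chr11:112086752-112086781, plus strand: cagctgtgtttGCGCATGCGCgacgggtgt
CYCS, chr7:25125411-25125440, minus strand: catgctcgccaGCATGCGCgcgcaggtcct
ATP5F1C, chr10:7788144-7788173, plus strand: ggggagcttcgGCGCATGCGCgctgaggcc
UQCRQ, chr5:132866577-132866606, plus strand: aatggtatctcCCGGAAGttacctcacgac
UQCR11, chr19:1605561-1605590, minus strand: tccaaccctcgCCGGAAGttactgtaagtg
COX8A, chr11:63974590-63974619, plus strand: ccagctccagaaCTTCCGGccagcgcagcc
COX6B1, chr19:35648293-35648322, plus strand: agtccccacctctctcagCTTCCGGctggt
In COX5B the NRF1 core begins 136 bases before the start and an ETS match 37 bases before it, with a further ETS match across the start that is not printed, and in UQCRQ the ETS match begins 54 bases before the start. A match describes letters and shows neither a binding site nor its use in these cells.

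In the control libraries the level per transcript length, as CPM per kilobase, spanned more than an order of magnitude among the 38 genes. COX6A1, the liver-type isoform of a small complex IV subunit, stood highest at 515 ± 25.2 CPM per kb (SD, n = 3). COX7C, another small complex IV subunit, followed at 458 ± 12.6 and ATP5F1B, the catalytic beta subunit of ATP synthase, at 453 ± 16.2 CPM per kb. COX7C and ATP5F1B differed from each other by less than their SD. ATP5F1E, the epsilon subunit of ATP synthase, was lowest at 14.3 ± 1.63 CPM per kb, followed by UQCRFS1, the Rieske iron-sulfur protein of complex III, at 31.9 ± 1.70. These ends of the order depend on the length used, because some annotated transcripts carry long ends outside the coding part. Per kilobase of coding sequence, COX7C was highest at 1614 CPM, ATP5F1E was at 175 CPM and ATP5MF, a membrane subunit of ATP synthase, was lowest at 94.1 CPM. ATP5F1D, another subunit of ATP synthase, was at 97.0 ± 9.20 CPM and differed from ATP5MF by less than this SD.

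**Figure D1:**
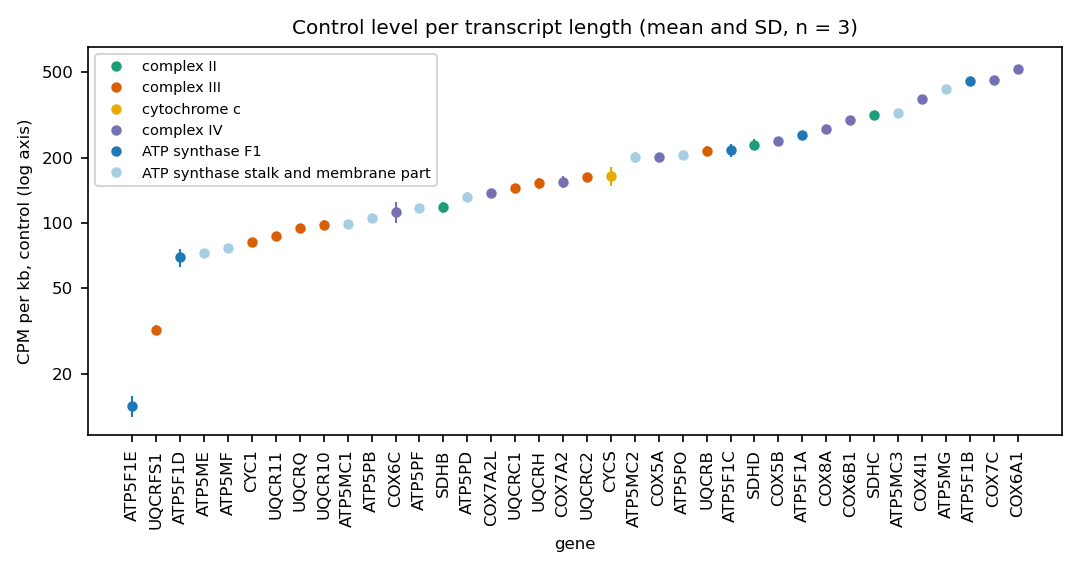
Control level of each of the 38 genes in CPM per kilobase of transcript (log axis), ordered from lowest to highest and coloured by complex; points are means and bars SD of 3 control libraries. ATP5F1E is lowest at 14.3 and COX6A1 highest at 515 CPM per kb, and members of each large complex are spread along the order.

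The c subunit, which forms the rotating ring of ATP synthase, is made from 3 genes, ATP5MC1, ATP5MC2 and ATP5MC3, that differ mainly in the import sequence cut off in the mitochondrion. Their control levels were 99.4 ± 2.85, 202 ± 11.4 and 324 ± 2.44 CPM per kb of transcript (SD, n = 3). The order was the same per kilobase of coding sequence, with 131, 387 and 640 CPM. Thus ATP5MC3 was the most abundant of the 3 messages in untreated cells on both scales, and all neighbours in this order differed by more than their SD.

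With carmine, 37 of the 38 genes had a positive log2 fold change against control, where 51.7% of all tested genes were positive, and the differences were small. Their median was 0.14, against 0.01 over all 16017 tested genes, and they ran from -0.01 in ATP5MG to 0.41 in CYC1. In edgeR's quasi-likelihood test with Benjamini-Hochberg adjustment none of the 38 passed the threshold of 0.05 (percent of all genes passing, 0), nor did any other tested gene. At an unadjusted p under 0.05, 11 of the 38 were higher and 0 lower, against 5.38% and 5.61% of all tested genes. In 11 of the 38 every carmine library lay above every control library, which held for 7.32% of all tested genes, and in 0 did every carmine library lie below, against 7.67%. DESeq2 passed 1 member, UQCRQ, among 75 genes (0.474% of those with an adjusted p), and limma-voom passed the same member among 48 genes (0.300%). Without carmine library C, 34 of the 38 were positive with a median of 0.11, against 0.001 over all genes. SDHC, COX6A1, ATP5PD and ATP5MC1 were then below 0, and ATP5MG was above it at 0.03.

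**Figure D2:**
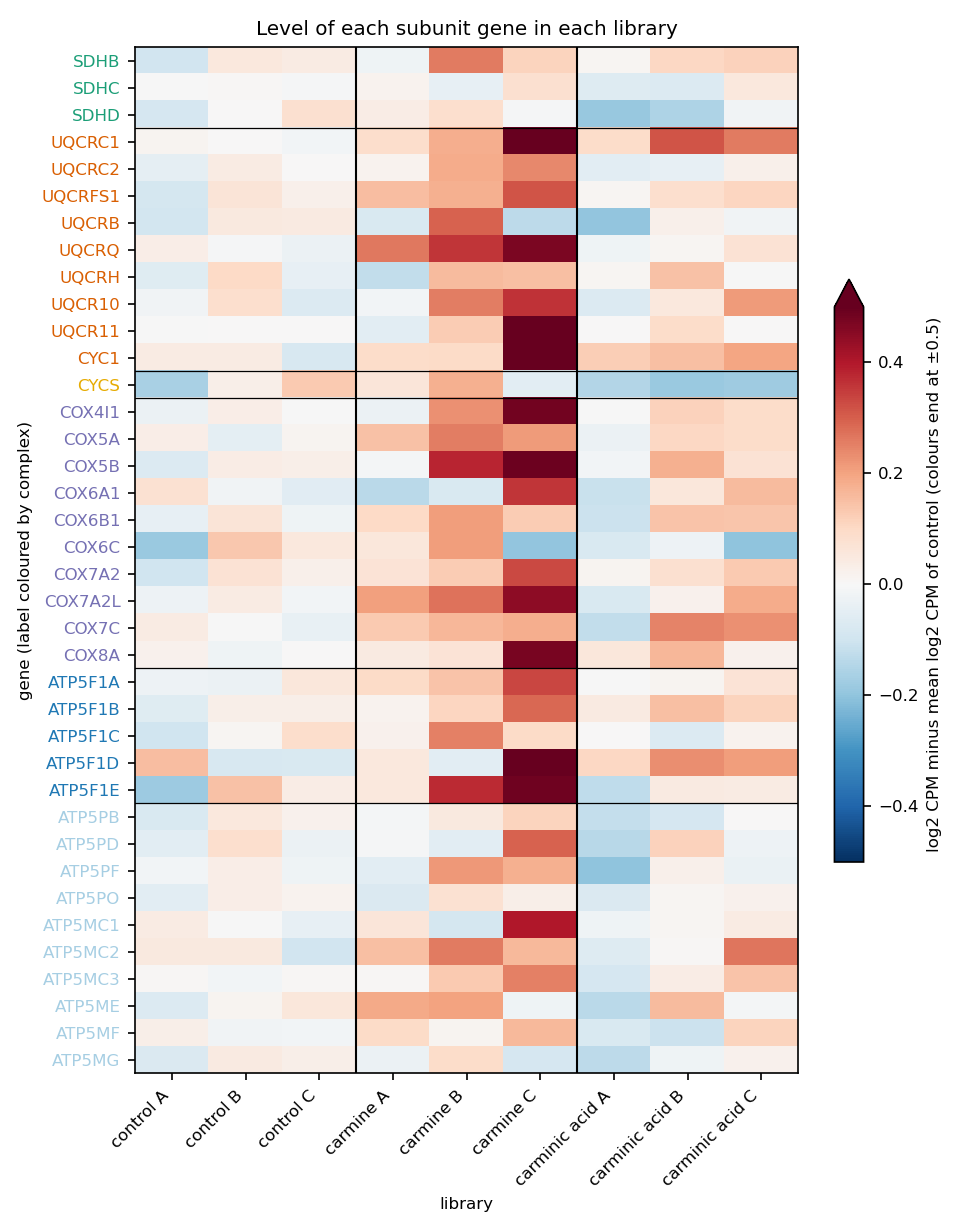
Level of each of the 38 genes in each of the 9 libraries, as log2 CPM minus the mean log2 CPM of the control libraries (colour scale ends at ±0.5), grouped by complex. The median over the genes is 0.04, 0.17 and 0.25 in carmine libraries A, B and C, and -0.07, 0.05 and 0.07 in the carminic acid libraries.

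The difference from control was uneven among the carmine libraries. Set against the control libraries, the median of the 38 genes was 0.04 in carmine A, 0.17 in carmine B and 0.25 in carmine C on the log2 scale. The control libraries themselves, each set against the other 2, had medians of -0.05, 0.05 and 0.003. The number of the 38 genes above the control mean was 25, 33 and 32 in carmine A, B and C. The summed level of the 38 genes was 6510, 6760 and 6714 CPM in control A, B and C, and 6817, 7391 and 8051 CPM in carmine A, B and C. All 3 carmine sums thus lay above all control sums, by a narrow margin for carmine A. Scaled by raw library totals without TMM factors, the sums were 6622 to 6840 CPM in control and 6895 to 7800 CPM with carmine. Genes of the mitochondrial chromosome were then also left out of those totals. The sums became 6753 to 7016 CPM in control and 6986 to 7877 CPM with carmine, and carmine A fell within the control range. In the edgeR fit that left these genes out and kept TMM factors, the carmine median was 0.14, with 37 positive.

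Complex II showed the smallest differences of the complexes with carmine, with a median of 0.04 over its 3 genes (0.06 without carmine library C) and 0 of 3 at an unadjusted p under 0.05. SDHB, the iron-sulfur subunit, stood at 127.8, 141.4 and 140.4 CPM in control and at 134.3, 163.2 and 147.3 CPM with carmine. The groups overlapped, and the log2 fold change was 0.12 (95% interval -0.05 to 0.29, edgeR adjusted p = 0.571). SDHD, a membrane anchor of the complex, was at 186.9, 198.8 and 209.8 CPM in control and at 203.5, 210.3 and 197.6 CPM with carmine, a log2 fold change of 0.04 (-0.11 to 0.19). SDHC, the other anchor, was at 145.3, 146.0 and 144.7 CPM in control and at 146.9, 141.2 and 153.5 CPM with carmine, and its log2 fold change was 0.02. For both anchors the groups overlapped, and without carmine library C the log2 fold changes of SDHD and SDHC were 0.06 and -0.01. SDHC, COX4I1, COX6C, ATP5F1A and ATP5F1D are given with library values here although they fall outside the rule for named genes, and were chosen after their values were seen.

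All 9 genes of complex III were positive with carmine, with a median of 0.21 that was 0.12 without carmine library C, and 3 of them, UQCRQ, UQCRFS1 and UQCRC1, had an unadjusted p under 0.05. UQCRQ encodes a small subunit that contacts the ubiquinone site and lies on chromosome 5 (132866642 to 132868847, plus strand, GRCh38.p14). It was at 56.9, 55.3 and 54.4 CPM in control A, B and C, at 66.7, 71.1 and 76.9 CPM with carmine, and at 54.7, 55.8 and 58.4 CPM with carminic acid. All carmine libraries exceeded all libraries of both other groups. The log2 fold change against control was 0.37 ± 0.07 (SE; 95% interval 0.21 to 0.53), and UQCRQ ranked 25 among all tested genes by p. It missed the threshold in edgeR (adjusted p = 0.132) and passed it in DESeq2 (adjusted p = 0.00116), in limma-voom (0.033), and in edgeR without carmine library C, where the log2 fold change was 0.32 (adjusted p = 0.0489; 0.221% of genes passed). The first exons of UQCRQ overlap those of GDF9 on the opposite strand, over 14.9% of its main annotated transcript. The strand setting of the counting is not given in the sources used here.

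The other catalytic and core genes of complex III differed in how far they rested on carmine library C. UQCRFS1, whose iron-sulfur protein moves between its redox partners within the complex, was at 104.4, 115.8 and 112.7 CPM in control and at 123.2, 125.3 and 137.8 CPM with carmine. The groups did not overlap, and the log2 fold change was 0.21 ± 0.07 (SE, edgeR adjusted p = 0.38). It was 0.17 without carmine library C.

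UQCRC1, a core protein that faces the matrix, was at 289.5, 287.0 and 284.0 CPM in control and at 304.9, 325.3 and 477.5 CPM with carmine. Its groups did not overlap, but library C stood far above A and B, and the log2 fold change of 0.36 (edgeR adjusted p = 0.395) was 0.14 without that library. CYC1, the gene of cytochrome c1, which hands electrons to cytochrome c, was at 103.7, 103.7 and 95.5 CPM in control and at 107.4, 107.8 and 187.6 CPM with carmine. Its log2 fold change of 0.41 was the largest of the 38 (95% interval -0.01 to 0.83, edgeR adjusted p = 0.454) and was 0.10 without carmine library C. UQCR11, a small subunit, likewise went from a log2 fold change of 0.22 to one of 0.04 when that library was left out. UQCRC2, the other core protein, was at 222.8, 236.6 and 230.3 CPM in control and at 232.5, 261.3 and 271.5 CPM with carmine. Carmine A lay within the control range, and the log2 fold change was 0.15. UQCR10, a small subunit near the Rieske protein, had one of 0.21 with overlapping groups, or 0.13 without carmine library C. UQCRH, the acidic hinge protein that helps dock cytochrome c, was at 88.2, 98.5 and 89.4 CPM in control and at 84.5, 102.6 and 102.0 CPM with carmine, a log2 fold change of 0.07. UQCRB, a ubiquinone-binding subunit, had one of 0.04. Without carmine library C these were 0.03 and 0.12.

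CYCS, the gene of cytochrome c, the soluble carrier between complexes III and IV that also triggers apoptosis once it reaches the cytosol, was at 143.8, 164.1 and 175.9 CPM in control. It was at 167.8, 182.0 and 154.8 CPM with carmine and at 145.2, 141.4 and 142.0 CPM with carminic acid. Carmine and control values overlapped, with a log2 fold change of 0.06 (95% interval -0.12 to 0.24), or 0.12 without carmine library C. Every carminic acid library lay below every carmine library and near or below the lowest control library.

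In complex IV all 10 genes were positive with carmine, with a median of 0.19, and 9 of 10 with a median of 0.14 without carmine library C, and 5 of them had an unadjusted p under 0.05, namely COX7A2L, COX5A, COX5B, COX4I1 and COX7A2. COX7A2L, a relative of COX7A2 that tethers complex III to complex IV in supercomplexes, was at 149.8, 156.8 and 151.0 CPM in control and at 175.7, 183.9 and 207.7 CPM with carmine. The groups did not overlap, and the log2 fold change was 0.31 ± 0.08 (SE, edgeR adjusted p = 0.322), or 0.24 without carmine library C. COX5A, a matrix-side subunit, was at 119.3, 112.7 and 117.9 CPM in control and at 129.1, 139.4 and 135.1 CPM with carmine. Again the groups did not overlap, and the log2 fold change of 0.21 ± 0.07 (SE, edgeR adjusted p = 0.38) was unchanged to 2 decimals without carmine library C.

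COX5B, the zinc-binding subunit on the matrix side and the gene with both motifs above, was at 163.1, 175.2 and 174.5 CPM in control and at 169.5, 222.4 and 240.1 CPM with carmine. Carmine A lay within the control range, and the log2 fold change was 0.30 (95% interval 0.08 to 0.53, edgeR adjusted p = 0.384), or 0.20 without carmine library C. COX4I1, the largest nuclear subunit and a site of control by ATP, was at 292.1, 305.0 and 298.4 CPM in control and at 292.5, 350.1 and 416.8 CPM with carmine, a log2 fold change of 0.24 that was 0.11 without carmine library C. COX7C was at 313.7, 304.4 and 296.9 CPM in control and at 334.2, 341.7 and 346.1 CPM with carmine. Its groups did not overlap and its log2 fold change of 0.16 was 0.15 without carmine library C (edgeR adjusted p = 0.498 with all libraries). COX6B1, which faces the intermembrane space, and COX8A, the smallest subunit, also had no overlap between groups, with log2 fold changes of 0.14 and 0.21, and that of COX8A was 0.06 without carmine library C. COX7A2 had 0.18 and COX6C 0.03, or 0.10 and 0.13 without that library. COX6A1 was at 310.5, 290.3 and 282.6 CPM in control and at 267.7, 278.9 and 376.5 CPM with carmine, so that its log2 fold change turned from 0.06 to -0.10 without library C.

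Of the 15 ATP synthase genes 14 were positive with carmine, with a median of 0.13, and 13 with a median of 0.07 without carmine library C. The 5 genes of F1, the catalytic head, had a median of 0.19 (0.12 without that library), and the 10 of the stalk and membrane part had one of 0.11 (0.05 without it). ATP5F1A, the alpha subunit, was at 527.5, 525.5 and 557.6 CPM in control and at 573.5, 592.3 and 676.7 CPM with carmine. Its groups did not overlap, and its log2 fold change was 0.19 (95% interval 0.04 to 0.35, edgeR adjusted p = 0.398), or 0.12 without carmine library C. ATP5F1B, its catalytic partner, was at 798.3, 849.7 and 849.8 CPM in control and at 843.5, 897.4 and 1015 CPM with carmine. These groups overlapped slightly, with a log2 fold change of 0.14, or 0.07 without carmine library C. ATP5F1E was at 23.5, 29.5 and 27.4 CPM in control and at 27.6, 34.6 and 37.4 CPM with carmine. Its log2 fold change of 0.31 (95% interval 0.06 to 0.55, edgeR adjusted p = 0.393) came with overlapping groups. ATP5F1D, the delta subunit of the central stalk, was at 54.2, 46.1 and 46.3 CPM in control and at 50.5, 47.0 and 79.7 CPM with carmine, so that its log2 fold change of 0.27 rested on library C and was 0.0011 without it. ATP5F1C, the gamma subunit that turns inside the head, had a log2 fold change of 0.12.

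Among the 3 genes of the c subunit, ATP5MC2, the middle one by level, had groups that did not overlap, and the other two had overlapping groups. It was at 169.0, 168.8 and 152.9 CPM in control and at 181.3, 195.8 and 182.6 CPM with carmine, a log2 fold change of 0.19 (95% interval 0.01 to 0.37, edgeR adjusted p = 0.448). ATP5MC3 was at 274.2, 270.4 and 273.6 CPM in control and at 273.8, 298.9 and 324.9 CPM with carmine, a log2 fold change of 0.13 that was 0.08 without carmine library C. ATP5MC1 was at 55.1, 53.5 and 52.0 CPM in control and at 55.9, 50.3 and 70.6 CPM with carmine, and its log2 fold change went from 0.14 to -0.01 without carmine library C. Whether the 3 genes differed from each other in response was not tested. In the peripheral stalk, which holds the head still, ATP5PB, ATP5PD, ATP5PF and ATP5PO had log2 fold changes of 0.05, 0.09, 0.12 and 0.01, or 0.03, -0.02, 0.09 and 0.01 without carmine library C. ATP5ME, ATP5MF and ATP5MG, small membrane subunits that help ATP synthases pair up, had 0.13, 0.09 and -0.01, or 0.20, 0.06 and 0.03 without it. ATP5MG was at 284.8, 309.5 and 305.7 CPM in control and at 293.5, 319.1 and 282.7 CPM with carmine, and it alone of the 38 genes was below 0 with all libraries.

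**Figure D3:**
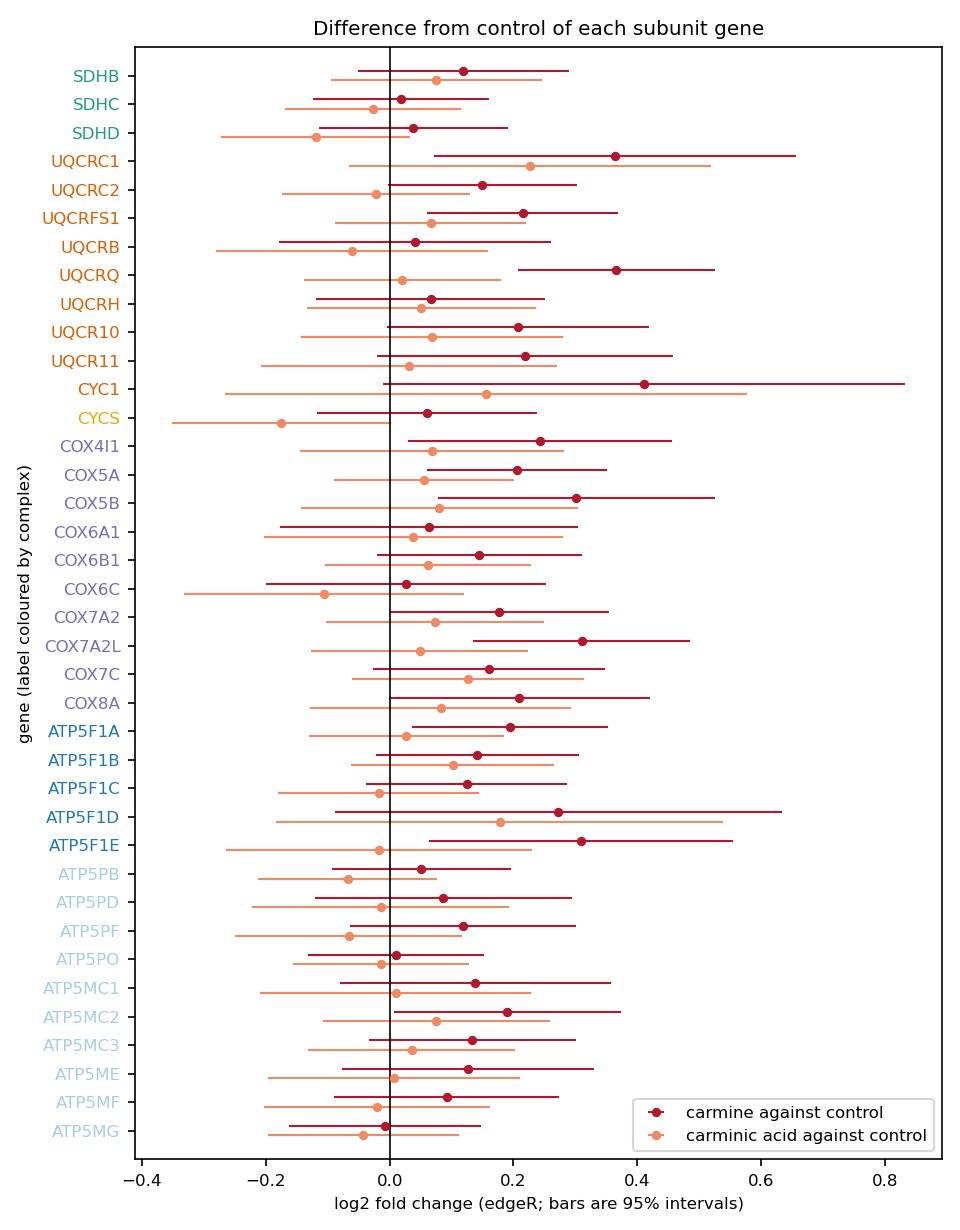
Log2 fold change of each of the 38 genes against control with carmine (dark) and carminic acid (light), from edgeR, with bars showing 95% intervals and gene labels coloured by complex. The carmine points run from -0.01 in ATP5MG to 0.41 in CYC1, the carminic acid points from -0.17 in CYCS to 0.23 in UQCRC1, and both series share the control libraries.

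With carminic acid, 24 of the 38 genes were positive against control, where 48.1% of all tested genes were, and the median was 0.03, against -0.01 over all tested genes. edgeR passed none of the 38 and none of all tested genes (0), and 0 of the 38 had an unadjusted p under 0.05 in either direction, against 2.52% higher and 3.91% lower over all tested genes. DESeq2 passed 0 of the 38 and 8 genes in all (0.0358%), limma-voom 0 of the 38 and 51 in all (0.318%), and edgeR without carmine library C 0 of the 38 and 21 in all (0.129%). In 4 of the 38, UQCRC1, CYC1, COX8A and ATP5F1B, every carminic acid library lay above every control library, against 12% of all tested genes, and in 0 of the 38 did every one lie below, against 8.82%. UQCRC1 was at 305.7, 357.1 and 343.8 CPM with carminic acid, all above its control values of 284.0 to 289.5 CPM, and its log2 fold change of 0.23 was the most positive (95% interval -0.07 to 0.52, edgeR adjusted p = 0.717). ATP5F1B was at 859.4, 923.2 and 898.4 CPM with carminic acid, above its 3 control values, with a log2 fold change of 0.10. CYCS was the most negative at -0.17 (95% interval -0.35 to 0.002, edgeR adjusted p = 0.717). SDHD followed CYCS in size among the negative values, at 174.0, 178.2 and 196.0 CPM and a log2 fold change of -0.12. By complex the medians were -0.03 in complex II, 0.05 in complex III, 0.07 in complex IV and -0.01 in ATP synthase. Without carminic acid library C the median of the 38 turned to -0.01, with 16 positive.

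When carmine was set against carminic acid, at their different doses, all 38 genes were positive, where 51.1% of all tested genes were. The median was 0.13, against 0.005 over all tested genes, and values ran from 0.02 in UQCRH to 0.35 in UQCRQ. In edgeR 0 of the 38 and 1 of all tested genes (0.00624%) passed the threshold. At an unadjusted p under 0.05, 9 of the 38 were higher and 0 lower, against 5.65% and 3.25%, and in 9 of the 38 every carmine library lay above every carminic acid library, against 7.09%, and in 0 every one below, against 6.01%. UQCRQ led with a log2 difference of 0.35 ± 0.07 (SE; 95% interval 0.19 to 0.50). Its adjusted p was 0.243 in edgeR, 0.00333 in DESeq2 (0.581% of genes passed) and 0.0415 in limma-voom (0.518% passed). COX7A2L, at 144.7, 155.0 and 173.5 CPM with carminic acid, had a log2 difference of 0.26 (95% interval 0.09 to 0.44, edgeR adjusted p = 0.407). ATP5F1E, at 24.4, 27.5 and 27.5 CPM with carminic acid, had one of 0.33 (0.08 to 0.57, edgeR adjusted p = 0.457). In both genes every carmine library lay above every carminic acid library, in ATP5F1E by a narrow margin. CYCS had one of 0.24 (0.06 to 0.41, edgeR adjusted p = 0.457). SDHD, though near 0 against control, had 0.16 here (0.005 to 0.31). UQCRH, COX6A1 and ATP5PO lay nearest to 0, with 0.02, 0.03 and 0.02 (-0.02, -0.14 and 0.03 without carmine library C), and their intervals of -0.17 to 0.20, -0.22 to 0.27 and -0.12 to 0.17 bound what a difference could be. Without carmine library C the median was 0.08, 29 of the 38 were positive, and edgeR passed UQCRQ (adjusted p = 0.0195) and CYCS (adjusted p = 0.0322) among 685 genes (4.21%).

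The nuclear and mitochondrially encoded subunits of the same complexes differed in direction with carmine, clearly for the mitochondrial sums and by little for the nuclear ones. In complex III the 9 nuclear genes summed to 1155 ± 26.5 CPM in control and 1360 ± 194 CPM with carmine (SD, n = 3), while CYTB, the mitochondrial gene of cytochrome b, was at 520.2, 823.6 and 673.7 CPM in control and at 375.3, 333.4 and 360.7 CPM with carmine. The CYTB groups did not overlap, with a log2 fold change of -0.92 (edgeR adjusted p = 0.197). In complex IV the 10 nuclear genes went from 1793 ± 19.9 to 2041 ± 206 CPM, and the sum of COX1, COX2 and COX3, the catalytic core, from 8367 ± 1079 to 4246 ± 634 CPM. The nuclear sums rested in part on carmine library C, as the carmine A, B and C values were 1187, 1324 and 1569.6 CPM in complex III, 1846, 2022 and 2256 CPM in complex IV, and 3131, 3348 and 3572 CPM in ATP synthase. Over raw totals without the mitochondrial chromosome and without TMM factors, carmine A lay within the control range in complex III (1217 CPM, against up to 1229.8). So it did in ATP synthase (3209 CPM, against up to 3231), but in complex IV it lay above that range (1892 CPM, against up to 1884). In ATP synthase the 15 nuclear genes went from 3072 ± 75.1 to 3351 ± 220 CPM, and ATP6 with ATP8 from 1156 ± 183 to 581 ± 53.9 CPM. The ratio of mitochondrial to nuclear counts was thus 0.581 ± 0.118 in control and 0.266 ± 0.0448 with carmine in complex III, 4.66 ± 0.565 and 2.11 ± 0.502 in complex IV, and 0.376 ± 0.0513 and 0.174 ± 0.0249 in ATP synthase. These ratios of CPM are not per length and compare groups, not genes. In all 3 complexes every carmine library had a lower ratio than every control library. In complex IV, for example, the ratio was 4.07, 5.19 and 4.73 in control A, B and C and 2.54, 2.24 and 1.56 with carmine. With carminic acid the mean ratios were 0.395 ± 0.0839, 3.02 ± 0.746 and 0.239 ± 0.0931, between those of the other groups. Carminic acid library C lay within the control range in complex III and ATP synthase, and all 3 carminic acid libraries lay below it in complex IV. All 6 mitochondrial genes of these complexes had negative log2 fold changes with carmine, from -0.79 to -1.27, and 6 of 6 had an unadjusted p under 0.05, but none passed in edgeR (adjusted p = 0.116 to 0.384).

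**Figure D4:**
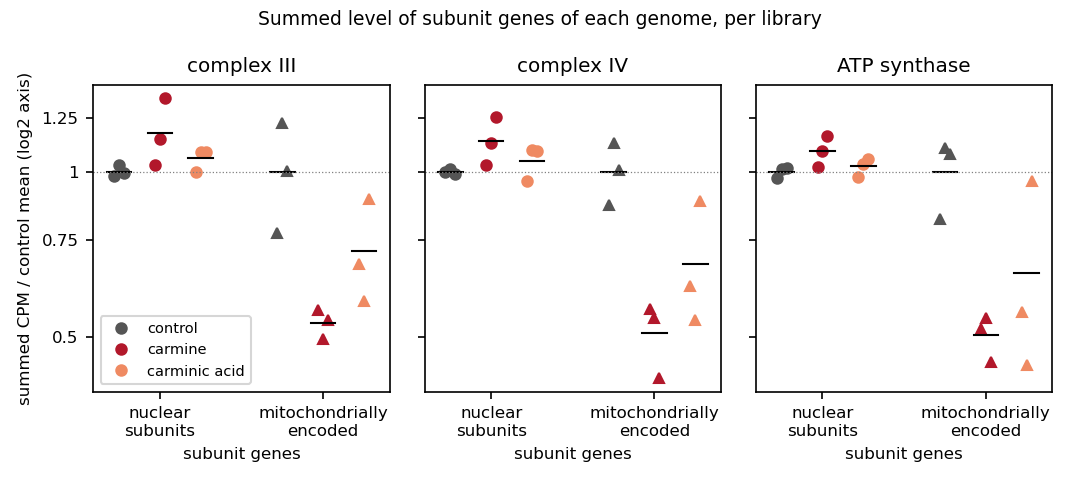
Summed CPM of the nuclear (circles) and mitochondrially encoded (triangles) subunit genes of complex III, complex IV and ATP synthase in each library, divided by the control mean (log2 axis), with bars at the group means. With carmine the nuclear sums lie above the control mean and the mitochondrial sums below every control library.

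Genes around the 38 gave the following counts with carmine, beside 51.7% of all tested genes positive and 5.38% higher at an unadjusted p under 0.05. Of 15 other nuclear subunits of complexes II to V, 9 were tested, 7 of them were positive with a median of 0.09 (0.05 without carmine library C), and 1, ATP5MJ, had an unadjusted p under 0.05. Among them SDHA, the flavoprotein of complex II, was at 246.0, 257.3 and 247.4 CPM in control and at 257.3, 258.3 and 293.0 CPM with carmine. Of 37 nuclear subunits of complex I, 35 were tested. NDUFA3 and NDUFA6, with 59 and 0 counts in all 9 libraries together, were not. Whether a count of 0, as in NDUFA6 and KRT20, came from absent expression or from the counting was not tested. Of the 35, 29 were positive with a median of 0.15, and 10 had an unadjusted p under 0.05, all higher. Without carmine library C, 25 of the 35 were positive with a median of 0.05. Of 46 assembly factors of complexes II to V, 36 were positive with a median of 0.08 (32 and 0.07 without that library), and 8 had an unadjusted p under 0.05, all higher. Of 14 tricarboxylic acid cycle enzymes 13 were positive with a median of 0.09, but 9 with a median of 0.02 without that library. Of 17 other mitochondrial membrane and import genes 14 were positive with a median of 0.14, and 15 with a median of 0.06 without it. Of 15 tested regulators of respiratory gene transcription 8 were positive with a median of 0.01, and 11 with a median of 0.07 without it. NRF1 was at 14.3, 13.6 and 14.5 CPM in control and at 15.1, 14.4 and 16.6 CPM with carmine, with overlapping groups, and GABPA had a log2 fold change of 0.09. PPARGC1A, the coactivator of these factors, had 34 counts in all 9 libraries together and was not tested. No gene of these lists passed in edgeR in any of the 3 comparisons with all libraries and no trend removed. With the trends of length and GC content removed, as described further on, edgeR passed 7 of 35 complex I subunits, 1 assembly factor and 1 regulator for carmine against control, where 2.03% of all genes passed. Without carmine library C it passed 1 complex I subunit and none of the others, where 0.221% passed. Members of the 38 with either motif had a median of 0.13 with carmine (18 genes) and those without had 0.19 (12 genes), and the ranges overlapped.

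Most of the 38 messages are short, and in these libraries fold changes moved with transcript length and base composition over all genes. The median transcript length was 735 bases in the 38 and 2419 in all tested genes, and 27 of the 38 were under 1000 bases, against 1707 of the 15454 tested genes with a length. Over these 15454 genes the carmine fold change had a Spearman rho of -0.25 with length and 0.14 with GC content, and the carminic acid fold change one of -0.06 and 0.48. Within the 38 the rho with length was 0.24 for carmine and 0.08 for carminic acid, so shorter members did not have the larger differences. These are descriptions over genes of shared libraries, which are not independent. Set beside genes of like length, the 15 members of 500 to 750 bases had a carmine median of 0.14 where all genes of that class had 0.08. The 8 of 750 to 1000 bases had 0.16 against 0.09, and the 5 of 1000 to 1500 bases had 0.15 against 0.08. The 5 of 1500 to 2500 bases had 0.19 against 0.04, and the 1 of 2500 to 4000 bases had 0.21 against -0.01. The 4 under 500 bases had 0.11, where all genes of that class had -0.09. In carmine library C, which had a rho of 0.49 with GC content over all genes, the 8 members with at least 55% GC, among them ATP5F1D, CYC1, UQCRC1 and COX8A, had a median deviation from control of 0.50 on the log2 scale, and the other 30 had 0.23. In carmine A the same medians were 0.09 and 0.02, and in carmine B 0.15 and 0.17. In carminic acid A, B and C they were 0.03 and -0.07, 0.15 and 0.03, and 0.17 and 0.06. Over the 9 libraries the rho with GC content over all genes ran from -0.44 in control C to 0.57 in carminic acid B.

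**Figure D5:**
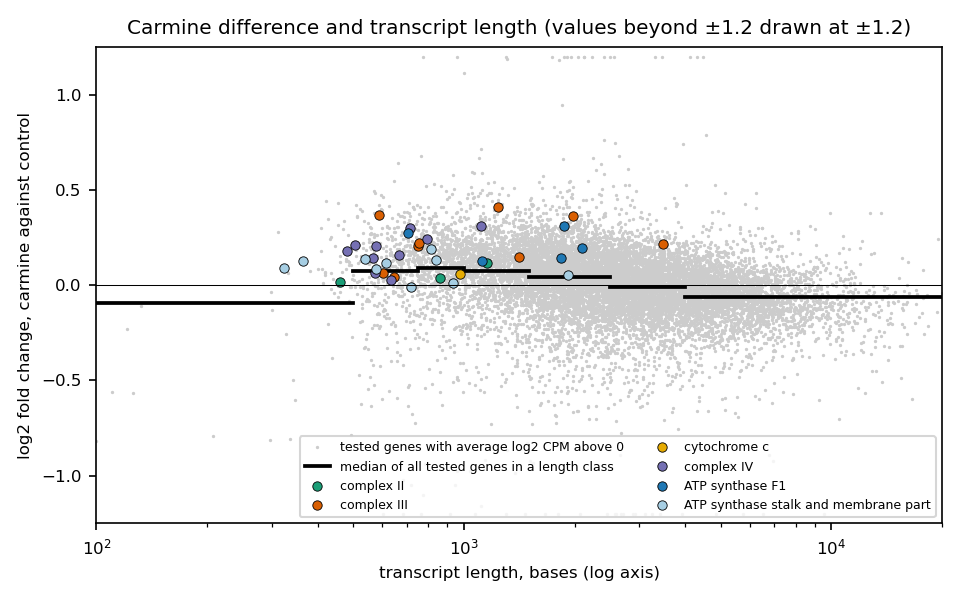
Log2 fold change with carmine (vertical axis, values beyond ±1.2 drawn at the limit) against transcript length in bases (log axis) for tested genes with an average log2 CPM above 0 (grey) and the 38 genes coloured by complex, with bars at the median of all tested genes in a length class. The class median is 0.08 at 500 to 750 bases and -0.06 from 4000 bases on, and most of the 38 genes lie above the median of their class.

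When the trends with length and GC content were removed from every library, the median of the 38 with carmine was 0.15, with 36 positive. Over all genes the median was 0.03, with 9011 of 15454 positive. edgeR then passed 3 of the 38, all higher, among 314 genes (2.03%). These were UQCRQ (log2 fold change 0.37, edgeR adjusted p = 0.0063), COX5A (0.22, adjusted p = 0.0363) and UQCRC1 (0.33, adjusted p = 0.0434). With the trends removed and carmine library C left out, 144 of 15670 genes passed. UQCRQ and COX5A were again among them, together with ATP5ME, and UQCRC1 was not. With carminic acid the median of the 38 became 0.07, with 36 positive, against 0.02 over all genes, of which 9028 were positive. Here edgeR passed 0 of the 38 and 4 genes in all (0.0259%). For carmine against carminic acid the median of the 38 became 0.10, with 32 positive, where 8130 of all genes were. UQCRQ passed (edgeR adjusted p = 0.0279) among 15 genes (0.0971%). With carmine library C also left out, the median of the 38 in this comparison was 0.04, with 26 positive, against 0.004 over all genes. For carmine against control that fit gave a median of 0.12, with 35 positive, against 0.03 over all genes. A length and GC trend that the treatment itself had caused would be removed as well.

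Over the 9 libraries most of the 38 genes followed the mean of the others, as a description over libraries that share total counts. Pearson's r with the mean standardised level of the other 37 was highest for ATP5F1E (0.956), UQCRC2 (0.939) and COX7A2L (0.936). It was lowest for COX6C (-0.002), ATP5MG (0.274) and CYCS (0.283). COX6C was at 74.0, 82.3 and 62.0 CPM with carmine and at 67.4, 70.0 and 61.8 CPM with carminic acid, so that it was lowest in library C of each treated group. The 5 tested genes outside the list whose pattern over the 9 libraries was most like the mean of the 38 were RPS6 (r = 0.987), TP53TG1 (0.982), BRK1 (0.981), TMEM59 (0.978) and AKR1C3 (0.976).

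Some counts may be shared with other annotated genes. CYCS has 45 pseudogenes and COX6C 18 in the reference table, of which 1 and 0 had a row in the files. Reads from such copies could be counted to the parent, or to the copy where it has a row. UQCRB, CYCS and ATP5F1E alone had a pseudogene with a row, 1 each, which took at most 0.347% of the counts of parent and copy together (UQCRB). Copies without a row could take no counts in these files, so this share says nothing about them. ATP5PO shares 70.3% of its main annotated transcript with a readthrough gene on the same strand, and ATP5MF shares 46.2%. COX8A, COX6A1 and SDHD overlap other protein-coding genes on the same strand over 34.5%, 30.6% and 22.2%. On the opposite strand ATP5ME overlaps MYL5 over 49.9%, ATP5F1E overlaps TUBB1 over 32.4% and ATP5PF overlaps GABPA over 23.5%. Overlaps of the remaining members were at most 17.7% (UQCR11). Values of all these genes are uncertain to that extent.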

How the data were processed

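Gene counts per library were deposited by the authors as raw counts per NCBI Gene ID, from reads aligned with HISAT2 per the file headers, and counted with featureCounts on hg38 per the submitters' processing notes. For versions, annotation, strand setting and multiply mapped reads nothing was given in the sources used here. Each file held 28395 genes, and 650 IDs without a symbol in the reference table took 0.0432% of counts. Genes were filtered with filterByExpr, scaled by TMM and tested with edgeR 4.0.16 (robust quasi-likelihood, 9 libraries, 3 groups, no covariate, R 4.3.3). P-values were adjusted by Benjamini-Hochberg over 16017 genes, with a threshold of 0.05. The biological coefficient of variation was 10.9%. Each SE was the absolute log2 fold change over the square root of its F value. DESeq2 1.42.0 and limma 3.58.1 (voom) were alternatives. These, the main edgeR fit and the edgeR fit with trends removed were run on simulated data, and the other settings were not. Length and GC content were medians over GENCODE v29 basic coding transcripts, at hand for 96.5% of tested genes, and their trends were removed with splines of 5 degrees of freedom each. The 38 genes and all lists were chosen with earlier results of these data known. Members given in full were, by rule, that with the smallest p for carmine in each complex, the 5 with the smallest p and the most positive and negative in each comparison, any that passed, the 3 genes of the c subunit and those highest and lowest in level. Same-lettered libraries had correlations of their deviations from the group means of -0.149 to 0.0952, so letters were not taken as pairs. All pairs of replicates differed by more than sampling noise (chi-square per degree of freedom at least 9.51).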

Additional observations from a re-analysis of the deposited data

How the results depend on the processing

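In edgeR, carmine against control passed 0 genes, and 7 with RLE size factors, with library size alone or with the mitochondrial chromosome left out, 19 without a filter, 12 with the 6 libraries alone, 314 with trends removed, 615 with trends removed and a replicate block, and 144 with trends removed without carmine C (chosen after the data were seen). DESeq2 passed 75 and limma-voom 48, and leaving out single libraries gave 0 to 36 (36 without carmine C). Of the 38 genes it passed 0, against 1 (DESeq2), 1 (limma-voom), 3 (trends removed), 10 (trends and block), 3 (trends, without carmine C) and 0 to 1 with libraries left out. Carminic acid against control passed 0, and 2 (no filter), 8 (DESeq2), 51 (limma-voom), 49 (6 libraries), 4 (trends), 10 (trends and block), 17 (trends, without carmine C) and 0 to 21 (libraries left out). Carmine against carminic acid passed 1, and 2 (RLE, library size alone, mitochondrial chromosome left out), 9 (no filter), 77 (DESeq2), 83 (limma-voom), 0 (non-robust, replicate block, replicate block with library size alone), 15 (trends), 19 (trends and block), 30 (trends, without carmine C) and 0 to 685 (685 without carmine C). Of the 38 genes it passed 0, against 1 by DESeq2, limma-voom, trends, trends and block, and trends without carmine C, and 0 to 2 with libraries left out. The replicate block alone passed 0 of the 38 in each comparison. The cause of the differences in the numbers of genes passing was not tested. The control mean of the summed level was 6661 CPM with TMM factors and 6748 CPM over raw library totals. It was 6907 CPM over raw totals without the mitochondrial chromosome, as smaller totals give larger CPM. No value that passed the test changed sign, but the carminic acid median of the 38 genes went from 0.03 to -0.01 without carminic acid C. The least counted of the 38 genes, ATP5MF, had 12808 counts over the 9 libraries.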
